A study of Sus scrofa with 18 samples.

Results

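Visceral fat (VAF) was compared between pigs of 1 month and 6 months of age. In the pig this fat was taken from the tissue beside the kidney, and the comparison covered the libraries VAF1-1, VAF1-2 and VAF1-3 at 1 month and VAF6-1, VAF6-2 and VAF6-3 at 6 months, which are 6 of the 18 libraries of the series. They were chosen by the library names in the header of the count table. The animals were male Bama pigs, a miniature breed, which shared a sire, were raised alike and were fasted before slaughter, so that none of the groups was a fed group. Each age had 3 pigs, and different pigs were sampled at each age. Subcutaneous fat (SAF) of the same ages and both depots at 3 months make up the rest of the series. The question was which genes differ between young and older visceral fat when the 3-month libraries take no part in the contrast. They enter the main fit through the choice of genes tested, the scaling of the counts and the shared spread.

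Before any result, 2 facts about the libraries matter. The study left VAF6-3 out of its own tests, so counts of calls are given without it and with it, and a value given for 1 fit alone is named as such or is from the fit without it. The sample titles and the library names of the table disagree for 4 visceral samples. By the titles, the library named VAF6-1 would be a 3-month sample and the library named VAF3-3 a 6-month sample, and this reading was run as an alternative.

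Fat beside the kidney grows after birth first by new adipocytes and then by filling of the cells with triglyceride. In pigs, adipose tissue is the main site where fatty acids are made from glucose and acetate, with acetyl-CoA carboxylase and fatty acid synthase at the centre of the pathway. Fasting turns this pathway down and turns on the release and burning of fatty acids. Young fat also holds dividing precursor cells and a collagen-rich matrix that is being laid down.

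The 6 visceral libraries held between 17035783 and 22857354 counts. Pearson correlations of log2(CPM + 1) over all genes were between 0.985 and 0.990 among the VAF1 libraries and 0.989 between VAF6-1 and VAF6-2, whereas VAF6-3 reached 0.965 and 0.973 with these. CPM is a gene's count scaled to a common library size after TMM normalization, which sets most genes equal between libraries. It is not divided by gene length, so levels are compared between libraries and never between genes. The 10 most abundant genes took 6.59% of the counts in VAF6-3 and between 11.5% and 18.6% in the other 5 libraries. Genes that define fat were high in all 6 libraries. FABP4, the fatty acid binding protein of adipocytes, had 4877, 8032 and 8499.6 CPM at 1 month and 7574, 5074 and 3668 CPM at 6 months, and ADIPOQ, which encodes adiponectin, had 884, 2119.9 and 1624 CPM and 2034, 2389 and 2162 CPM. Summed over the 11 urothelial markers of the table the level was 3.07, 2.94 and 5.81 CPM at 1 month and 11.5, 1.59 and 2.42 CPM at 6 months, and UMOD, which defines kidney tubule, was at 0 in all 6.

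The age change was tested with edgeR's quasi-likelihood test on the counts of all 6 groups without VAF6-3. A gene was called when its Benjamini-Hochberg adjusted p was under 0.05 and it differed more than 1.5-fold; log2 fold changes are 6 months minus 1 month. Of 16664 genes tested, 10 were called higher at 6 months (0.06% of genes tested) and 5 lower (0.03%), and 2161 had an unadjusted p below 0.05. With VAF6-3 included, 7 of 16101 were called higher (0.0435%) and 10 lower (0.0621%), and 5 genes were called in both fits. DESeq2, the tool the study named, run on VAF1 and VAF6 alone, called 696 higher (4.32% of the 16101 genes with an adjusted p) and 511 lower (3.17%) without VAF6-3, and 117 higher (0.718% of 16298) and 185 lower (1.14%) with it. The count of calls thus differed with the tool and with single libraries. edgeR on VAF1 and VAF6 alone, with no 3-month or subcutaneous library in the fit, called 130 higher and 34 lower without VAF6-3 and 0 with it, where 1470 genes had an unadjusted p below 0.05. In the fit of all groups, leaving out SAF6-3 gave 205 higher and 84 lower, all 15 calls among them. This subcutaneous library enters the contrast through the choice of genes tested, the scaling and the shared estimate of the spread. With the ages as the sample titles give them, in a fit of 18 libraries with VAF6-3, 2 were called higher and 7 lower. Of these only HILPDA was among the 15. Under the library names, 5 of the 15 stayed called with VAF6-3 added. Without VAF6-3 and VAF1-2, edgeR on all groups called 5 genes. Without VAF6-2 or without VAF1-3 it called 0, with 1454 and 1651 genes at an unadjusted p below 0.05, and without VAF6-1 it called 1 gene, NR1D1. Libraries of the same number deviated together weakly (r = 0.258, 0.143 and 0.128, with VAF6-3 included). Different pigs were sampled at each age, so the number is not known to pair anything. With it as a block in an edgeR fit of the visceral libraries without VAF6-3, 451 of 15175 genes tested were called higher and 314 lower. Among them were 14 of the 15 and not PCK1 (adjusted p = 0.288). That fit had 1 residual degree of freedom, and VAF1-3 had no partner, so its contrast rested on the pairs numbered 1 and 2. With VAF6-3 in that fit the count was 0, with 1594 genes at an unadjusted p below 0.05. Block counts given for lists below carry these limits and are read against 451 higher and 314 lower of 15175.

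**Figure D1:**
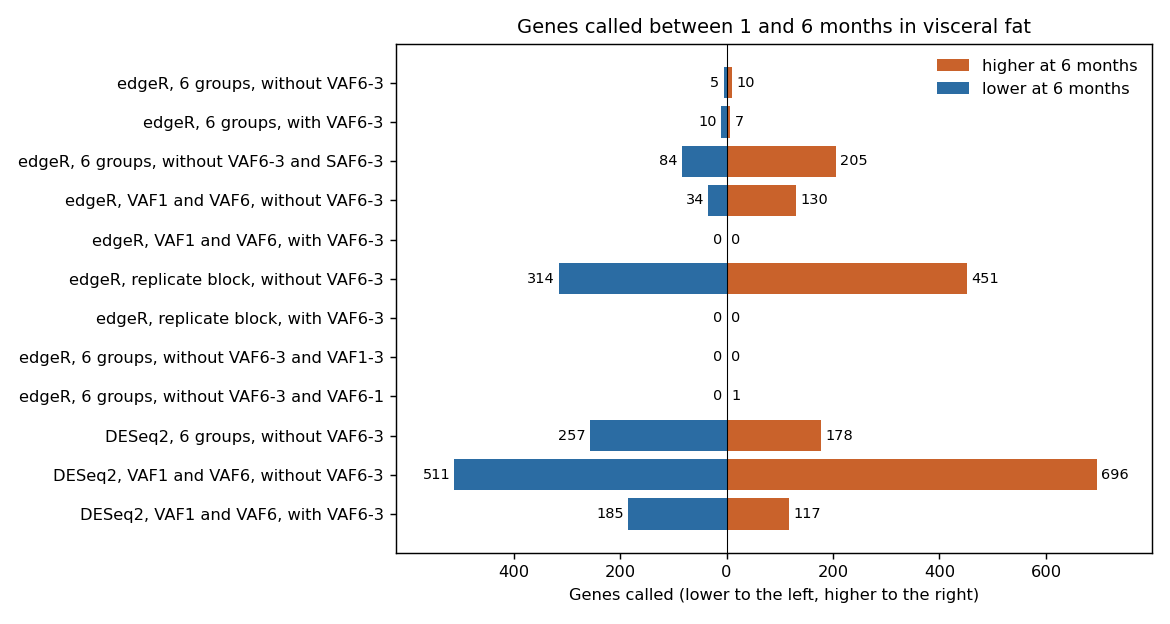
Number of genes called higher (right, orange) and lower (left, blue) at 6 months than at 1 month in visceral fat under 12 settings, each row 1 fit. The count runs from 0 in 3 of these fits to 1207 (696 higher and 511 lower) with DESeq2 on the 5 visceral libraries.

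In position alone, all 3 VAF6 libraries lay above all 3 VAF1 libraries for 1117 of the 16664 genes (6.7%) and below them for 1554 (9.33%). Lists of genes are read against these shares. DESeq2 calls in a list are read against its shares over all genes. These were 4.32% higher and 3.17% lower without VAF6-3, and 0.718% higher and 1.14% lower with it. A list is described by the number of its members called or not overlapping and by its median log2 fold change, beside the median of all genes tested, which was -0.03 without VAF6-3 and 0.02 with it. Every gene outside the naming rule given with the methods was chosen after its values were seen.

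Among the 10 genes called higher, 2 belong to the circadian clock and its output. NR1D1 (chr12:22263549-22274131) encodes REV-ERBα, a nuclear receptor that represses transcription in the clock. It had 3.95, 6.32 and 4.41 CPM in the VAF1 libraries, 19.8 and 36.4 CPM in VAF6-1 and VAF6-2 and 10.6 CPM in VAF6-3. All 3 older libraries exceeded all young ones, and the log2 fold change was 2.51 (SE 0.32, edgeR adjusted p = 0.0143) without VAF6-3 and 2.18 (adjusted p = 0.0466) with it. NR1D1 overlaps THRA, the thyroid hormone receptor α gene, and the strand setting of the counting is not given, so that reads of the shared part cannot be told apart; THRA itself had 107, 119 and 94.1 CPM at 1 month and 123, 117 and 120.5 CPM at 6 months. TEF (chr5:7119354-7135171), a PAR bZIP transcription factor under clock control, had 23.1, 27.4 and 15.9 CPM at 1 month and 83.98, 89.9 and 39.3 CPM at 6 months, with a log2 fold change of 1.97 (SE 0.26, edgeR adjusted p = 0.0143) without VAF6-3 and 1.68 (adjusted p = 0.0476) with it. NR1D1 was called in 16 and TEF in 15 of the 22 fits, the most of any of the called genes.

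ITIH3 (chr13:34911104-34924881), a heavy chain that binds hyaluronan in the matrix and in serum, had high levels in all 3 older libraries. It had 36.3, 53.3 and 39.8 CPM at 1 month and 344, 228 and 330.1 CPM at 6 months, and its log2 fold change was 2.73 (SE 0.46, edgeR adjusted p = 0.0436) without VAF6-3 and 2.80 (adjusted p = 0.0361) with it. NTN1 (chr12:54089444-54292191), which encodes the secreted guidance cue netrin 1, had 49.1, 24.3 and 16.4 CPM at 1 month. In VAF6-1 and VAF6-2 it reached 232 and 274 CPM, and in VAF6-3 64.9 CPM, above each young library. Its log2 fold change of 3.08 (SE 0.52, edgeR adjusted p = 0.0436) became 2.67 with VAF6-3, where it was not called (adjusted p = 0.0875).

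Mitochondrial genes of ubiquinone metabolism were among the calls made without VAF6-3. DHODH (chr6:14942898-14956000), which makes pyrimidines and passes electrons to ubiquinone, had 10.3, 10.99 and 9.68 CPM at 1 month and 27.9, 21.4 and 17.1 CPM at 6 months (log2 fold change 1.25, SE 0.20, edgeR adjusted p = 0.0394). COQ8A (chr10:14597237-14643394), an atypical kinase needed for ubiquinone synthesis, had 98.5, 139 and 92.6 CPM and 267, 326 and 179 CPM (log2 fold change 1.42, SE 0.25, adjusted p = 0.0456). In both genes the 3 older libraries lay above the 3 young ones, with VAF6-3 the lowest of the older. With VAF6-3 in the fit edgeR called neither (log2 fold change 1.09, adjusted p = 0.0561 for DHODH and 1.23, adjusted p = 0.0797 for COQ8A). DDX19A (chr6:13368638-13391344), a helicase of mRNA export, had the smallest fold change of the 15: 12.4, 12.98 and 15.4 CPM against 28.03, 29.3 and 25.2 CPM, a log2 fold change of 1.07 (SE 0.18, edgeR adjusted p = 0.0436) without VAF6-3 and 1.02 (adjusted p = 0.0373) with it.

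The other 3 genes called higher were high in VAF6-1 and VAF6-2, and VAF6-3 lay near or within the young range. SLC16A13 (chr12:52435519-52439631), a monocarboxylate transporter gene, had 10.3, 10.04 and 9.76 CPM at 1 month, 38.5 and 58.2 CPM in VAF6-1 and VAF6-2 and 7.82 CPM in VAF6-3 (log2 fold change 2.26, edgeR adjusted p = 0.0190). LOC102162791 (chr3:699738-707414) gave 4.19, 2.94 and 1.77 CPM, 9.83 and 17.05 CPM and 1.76 CPM in the same order (log2 fold change 2.18, edgeR adjusted p = 0.0394). PRR18 (chr1:2600779-2604733) had 0.885, 0.866 and 0.659 CPM at 1 month and 9.01 and 9.78 CPM in VAF6-1 and VAF6-2, while VAF6-3, at 0.959 CPM, stood just above the young libraries (log2 fold change 3.54, edgeR adjusted p = 0.0349). None of these 3 was called by edgeR once VAF6-3 was included (adjusted p = 0.193, 0.259 and 0.121).

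Of the 5 genes called lower, POSTN (chr11:13225183-13258973) was the one with the smallest p. It encodes periostin, a matrix protein secreted by mesenchymal cells. Its level was 1858, 439 and 962 CPM at 1 month, 65.2 and 46.1 CPM in VAF6-1 and VAF6-2 and 241 CPM in VAF6-3, so the groups did not overlap. The log2 fold change was -4.29 (SE 0.61, edgeR adjusted p = 0.0190) without VAF6-3 and -3.22 (adjusted p = 0.0567) with it. HILPDA (chr18:19944929-19947080), a lipid droplet protein that inhibits the lipase ATGL, had 43.7, 86.2 and 73.5 CPM at 1 month and 18.6, 18.8 and 21.3 CPM at 6 months. It was called lower without VAF6-3 (log2 fold change -1.86, SE 0.32, edgeR adjusted p = 0.0456) and with it (-1.79, adjusted p = 0.0361). LOC102163816 (chr2:6749941-6794116), annotated as a long non-coding RNA, had 3.36, 10.4 and 4.04 CPM against 0.707, 0.428 and 1.88 CPM (log2 fold change -3.37, edgeR adjusted p = 0.0320), and was not called with VAF6-3 (-2.52, adjusted p = 0.0567).

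In the remaining genes called lower, VAF6-3 lay within the range of the young libraries. PCK1 (chr17:57930507-57936523), phosphoenolpyruvate carboxykinase, which in fat makes glycerol for triglyceride during fasting, had 202, 1076 and 713 CPM at 1 month, 28.97 and 16.3 CPM in VAF6-1 and VAF6-2 and 353 CPM in VAF6-3. Its log2 fold change was -4.87 (SE 0.77, edgeR adjusted p = 0.0349) without and -2.33 (adjusted p = 0.341) with VAF6-3. PTX3 (chr13:97273594-97279570), a pentraxin of innate immunity, had 15.5, 40.9 and 22.2 CPM, 3.77 and 6.60 CPM and 34.1 CPM in the same order (log2 fold change -2.35, edgeR adjusted p = 0.0456), and was not called with VAF6-3 (log2 fold change -0.82). Of the 15 called genes, 9 overlap another annotated gene, which limits what their counts can assign, and in 4 of the 15 VAF6-3 did not lie on the older side of the young libraries.

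**Figure D2:**
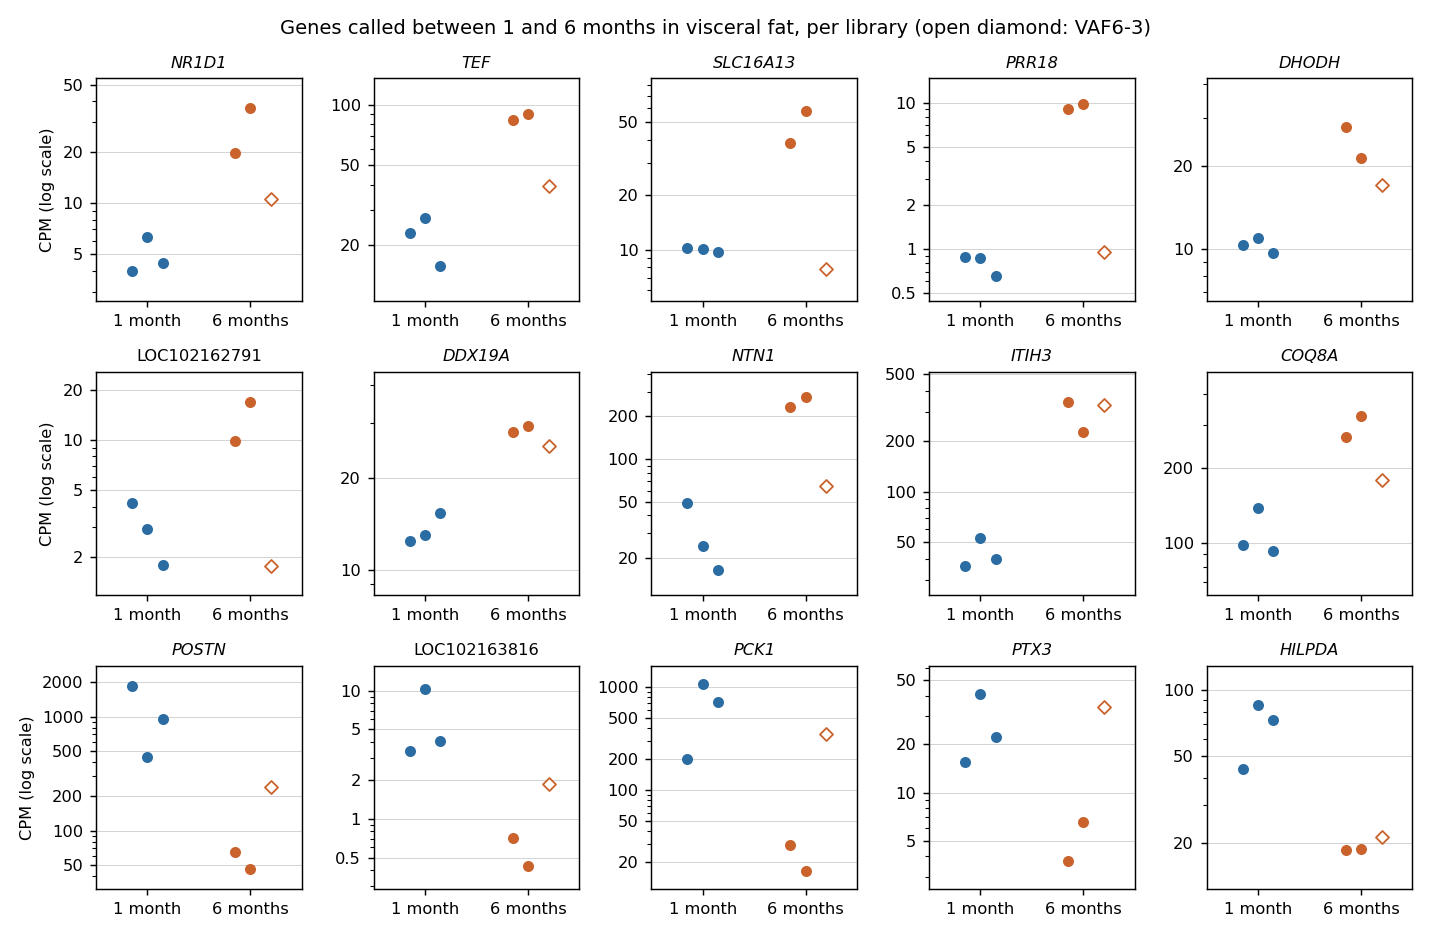
CPM (log scale) of the 15 called genes in each visceral library, with 1-month libraries in blue and 6-month libraries in orange; the open diamond is VAF6-3, which took no part in the call. In 11 of the 15 genes all 3 older libraries lie on the same side of the 3 young ones, and in SLC16A13, LOC102162791, PCK1 and PTX3 VAF6-3 does not.

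With VAF6-3 included, edgeR called 12 genes that it did not call without it. CA3, which encodes carbonic anhydrase III, an abundant cytosolic enzyme of adipocytes, had 1378, 3666 and 3674 CPM at 1 month and 305, 120.5 and 286 CPM at 6 months (log2 fold change -3.61, edgeR adjusted p = 0.0361 with VAF6-3 and 0.0696 without). PAQR6, a membrane progesterone receptor, had 286, 467 and 374 CPM against 82.6, 87.1 and 72.3 CPM (log2 fold change -2.22, adjusted p = 0.0466). STMN1, which encodes the microtubule regulator stathmin of proliferating cells, had 67.8, 62.3 and 76.8 CPM against 31.04, 30.4 and 31.8 CPM (log2 fold change -1.15, adjusted p = 0.0361). No library of either age overlapped the other age in these 3 genes. Higher at 6 months were NR1D2, the REV-ERBβ gene, with 16.3, 21.4 and 16.6 CPM against 53.5, 52.7 and 64.7 CPM, and ALG9, a mannosyltransferase of N-glycan synthesis, with 15.9, 16.97 and 15.3 CPM against 44.6, 46.6 and 57.7 CPM. GYS2, a glycogen synthase, had 8.02, 9.48 and 14.000 CPM against 36.6, 55.8 and 81.3 CPM (log2 fold change 2.46, edgeR adjusted p = 0.0476). The other 6 of the 12, called lower, were DRC1, MEGF6, GAREM2, LGALS13, ABHD12B and LOC110262252.

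DESeq2 with all 6 libraries called further genes whose groups did not overlap. LAMC3, a laminin γ chain, had 1.0025, 2.81 and 1.98 CPM at 1 month and 52.000, 18.8 and 13.000 CPM at 6 months (DESeq2 log2 fold change 3.86, adjusted p = 6.37e-08). SULT1E1, which sulfates and so inactivates oestrogens, had 1.30, 0.260 and 0.0824 CPM against 26.8, 3.48 and 24.01 CPM (adjusted p = 4.42e-06). CCL26, an eosinophil chemokine, had 13.1, 19.6 and 5.93 CPM against 123, 33.3 and 95.9 CPM (adjusted p = 3.00e-04). In these 3 genes the older libraries differed among themselves by several fold and were still all above the young ones. Lower at 6 months were NREP, a neuronal regeneration related protein also made by fibroblasts, with 439.7, 225 and 203 CPM against 61.95, 68.4 and 56.4 CPM (DESeq2 adjusted p = 1.10e-06), and PHGDH, the first enzyme of serine synthesis, with 46.2, 77.4 and 79.8 CPM against 16.4, 14.8 and 6.60 CPM (adjusted p = 6.17e-06). IGFALS, which encodes the acid labile subunit that carries IGFs in serum, had 34.7, 52.2 and 22.9 CPM against 8.83, 9.10 and 6.98 CPM (adjusted p = 1.01e-05). CTSL, the lysosomal protease cathepsin L, had 83.97, 75.6 and 103 CPM against 36.2, 31.1 and 27.3 CPM (adjusted p = 1.41e-05). edgeR without VAF6-3 called none of these 7 (adjusted p between 0.113 for LAMC3 and 0.221 for CTSL).

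The summed level of de novo lipogenesis genes was higher in VAF6-1 and VAF6-2 than in the young libraries and lower in VAF6-3 than in either. Summed over the 21 genes of the list, the level was 18888, 7847 and 11386 CPM in the VAF1 libraries, 74396 and 120233 CPM in VAF6-1 and VAF6-2 and 2340.1 CPM in VAF6-3. Without VAF6-3, 20 of the 21 genes did not overlap between the ages, all higher at 6 months. With only these 2 older libraries, 17.9% of all genes tested had both above the 3 young libraries and 18.4% had both below. DESeq2 without VAF6-3 called 18 higher and 0 lower; the median log2 fold change was 1.96 by DESeq2 and 1.94 by edgeR, which called 0 in the list; with the library number as a block, edgeR called 16 higher. With VAF6-3, DESeq2 called 0 of them and no gene of the list separated the ages; the edgeR median was 1.39.

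ACLY, ACACA and FASN had the order of the sums. ACLY, the citrate lyase that supplies cytosolic acetyl-CoA, had 983, 189 and 364 CPM at 1 month, 6434 and 10900.0 CPM in VAF6-1 and VAF6-2 and 131 CPM in VAF6-3 (DESeq2 without VAF6-3: log2 fold change 4.09, adjusted p = 4.82e-04). ACACA, acetyl-CoA carboxylase, had 454, 223 and 300.0 CPM, 1796 and 2677 CPM and 155 CPM in the same order (adjusted p = 4.31e-12). FASN, fatty acid synthase, had 4401, 1738 and 2251 CPM, 24541 and 40982 CPM and 259 CPM (DESeq2 log2 fold change 3.56, adjusted p = 2.29e-13; edgeR adjusted p = 0.238). In all 3 genes VAF6-3 was the lowest of the 6 libraries, and DESeq2 with VAF6-3 called none of them (adjusted p = 0.223, 0.0811 and 0.367).

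SCD, the stearoyl-CoA desaturase, varied among the young libraries too. It had 6648, 391 and 2179 CPM in VAF1-1, VAF1-2 and VAF1-3, so the young pigs differed widely, and 21254 and 37361 CPM in VAF6-1 and VAF6-2 against 50.9 CPM in VAF6-3; neither DESeq2 (adjusted p = 0.0650) nor edgeR (adjusted p = 0.394) called it. ELOVL6, which extends palmitate, was even among the young libraries at 1253, 1023 and 1143 CPM and had 4128 and 5903 CPM and 234 CPM in the older ones (DESeq2 adjusted p = 1.61e-15). The desaturases of polyunsaturated fatty acids differed less: FADS1 had 8.79, 7.88 and 10.6 CPM against 12.96, 13.4 and 9.51 CPM and FADS2 16.9, 19.1 and 36.2 CPM against 28.3, 38.7 and 15.99 CPM, and DESeq2 called neither (adjusted p = 0.254 and 0.555).

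NADPH for the pathway comes from malic enzyme and the pentose phosphate pathway. ME1, the malic enzyme, had 335, 201 and 307 CPM at 1 month and 2116 and 4931 CPM in VAF6-1 and VAF6-2 (DESeq2 log2 fold change 3.66, adjusted p = 2.08e-16), and 76.01 CPM in VAF6-3. PGD and TKT of the pentose phosphate pathway had smaller DESeq2 log2 fold changes, 1.17 and 1.41, both called (adjusted p = 8.20e-07 and 5.56e-09). SREBF1 and MLXIPL encode transcription factors that drive the pathway. SREBF1 had 174, 148 and 141 CPM against 412, 444 and 123 CPM (DESeq2 log2 fold change without VAF6-3 1.48, adjusted p = 4.24e-11), and MLXIPL, the ChREBP gene, 118, 67.8 and 60.1 CPM against 389, 329 and 66.995 CPM (2.13, adjusted p = 1.02e-07). The insulin-regulated glucose transporter SLC2A4 had 136, 75.3 and 78.2 CPM against 354 and 353 CPM and 34.9 CPM (adjusted p = 8.62e-07). With VAF6-3 DESeq2 gave an adjusted p of 0.361 for ELOVL6, 0.240 for ME1, 0.270 for SREBF1, 0.116 for MLXIPL and 0.384 for SLC2A4.

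**Figure D3:**
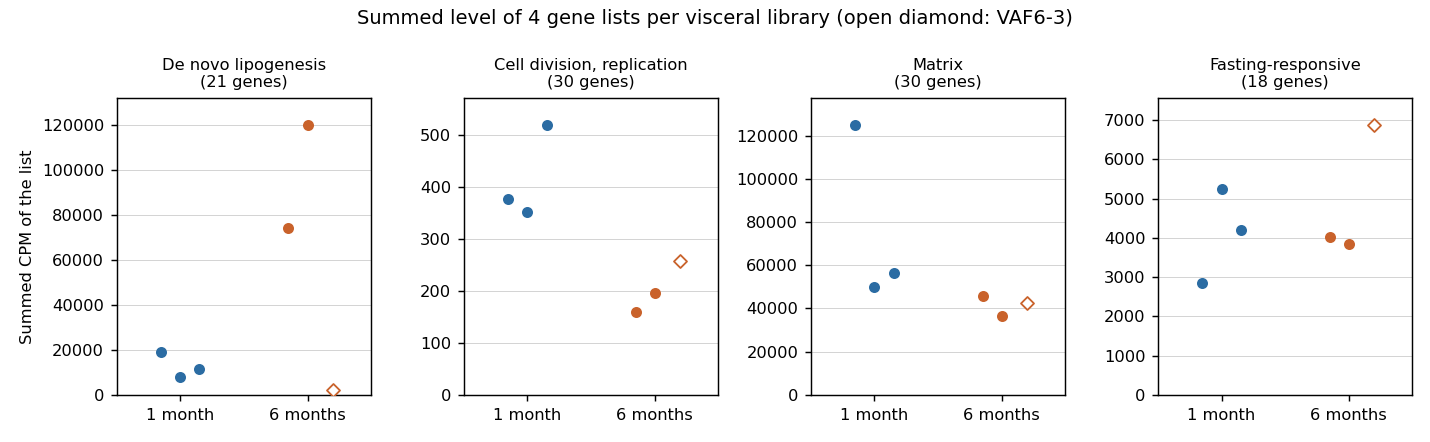
Summed CPM of 4 gene lists in each visceral library, with 1-month libraries in blue, VAF6-1 and VAF6-2 in orange and VAF6-3 as the open diamond; each axis starts at 0. VAF6-3 is the lowest library for lipogenesis and the highest for the fasting-responsive genes, while for cell division all 3 older libraries lie below the young ones.

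Cholesterol synthesis and uptake was likewise highest in VAF6-1 and VAF6-2 and lowest in VAF6-3. The list summed to 831, 709 and 919 CPM at 1 month, 1579 and 1977 CPM in VAF6-1 and VAF6-2 and 464 CPM in VAF6-3, and DESeq2 without VAF6-3 called 7 of 17 tested higher and 0 lower (median log2 fold change 0.88; 0 called with VAF6-3). edgeR called 0 in the list, and 6 higher with the library number as a block.

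Genes that fasting or glucocorticoids raise in fat moved in both directions. The 18 genes summed to 2857, 5247 and 4210.1 CPM at 1 month, 4031 and 3840.2 CPM in VAF6-1 and VAF6-2 and 6878 CPM in VAF6-3. Of 17 tested, 9 had all 3 older libraries above the young ones, against 6.7% of all genes, and 0 had them below; edgeR called 1 lower (PCK1) and DESeq2 without VAF6-3 called 3 higher and 4 lower; with the library number as a block edgeR called 3 higher and 1 lower. FKBP5, a glucocorticoid-induced chaperone, had 44.9, 26.6 and 29.03 CPM at 1 month and 192, 104 and 199.7 CPM at 6 months (DESeq2 log2 fold change 2.15 without and 2.31 with VAF6-3, adjusted p = 7.13e-07 and 3.05e-07; edgeR adjusted p = 0.118). KLF15, a transcription factor of the same response, had 23.1, 24.7 and 25.6 CPM against 63.1, 58.97 and 38.7 CPM (DESeq2 adjusted p = 8.19e-10 and 0.0101). PDK4, the kinase that shuts pyruvate out of oxidation, was called lower only without VAF6-3: 96.002, 338 and 243 CPM at 1 month, 50.9 and 95.4 CPM in those 2 and 1036 CPM in VAF6-3 (DESeq2 adjusted p = 0.0251 without and 0.885 with VAF6-3). TXNIP and CIDEC were the members with the most reads. TXNIP had 326, 859 and 739 CPM, 315 and 426 CPM and 2912 CPM in the same order, and CIDEC 1237, 1764 and 1511 CPM, 2165 and 1873 CPM and 464 CPM; neither was called.

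**Figure D4:**
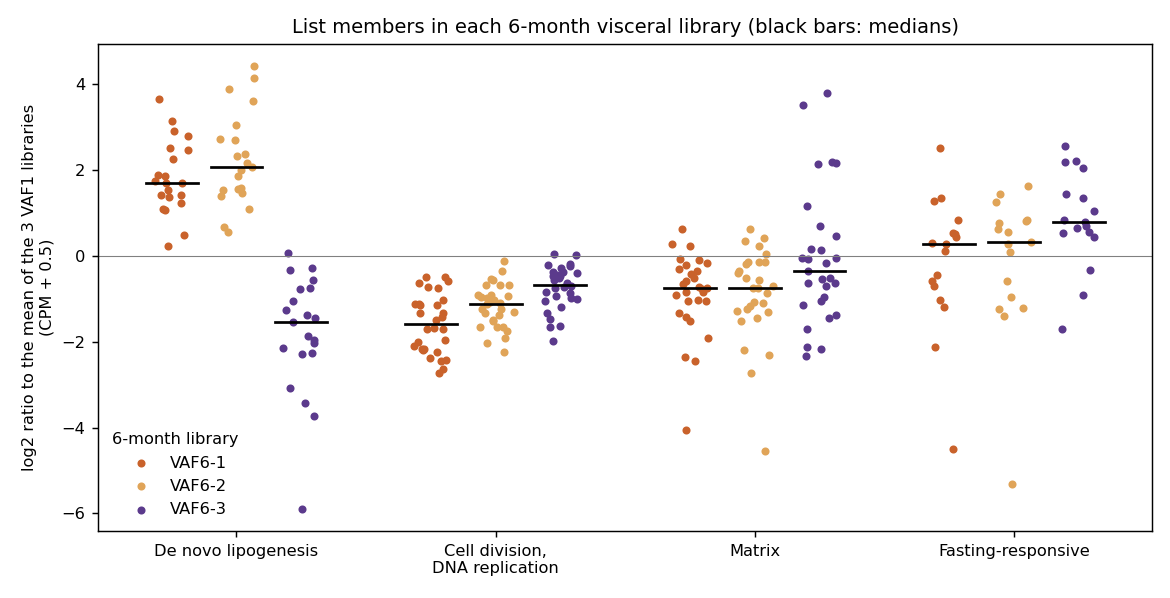
Each point is 1 gene of a list in 1 older library, as the log2 ratio of its CPM (+ 0.5) to the mean of the 3 VAF1 libraries; black bars are medians. The lipogenesis medians are 1.70 and 2.05 in VAF6-1 and VAF6-2 and -1.54 in VAF6-3, whereas the cell division medians are -1.59, -1.12 and -0.67.

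VAF6-3 thus differed from VAF6-1 and VAF6-2 in some lists and not in others. Of the 696 genes that DESeq2 called higher without it, VAF6-3 lay above all young libraries in 186, within their range in 109 and below all of them in 401. Of the 511 called lower, it lay below all young libraries in 320, within their range in 126 and above them in 65. Lists with a higher sum in VAF6-3 included the progenitor and mesenchyme genes, at 5499 CPM against 2655 and 2039.5 CPM in the other 2 older libraries, and the macrophage genes, at 4612 CPM against 1855 and 1904 CPM. The part of cell makeup, feeding state or RNA quality in these differences was not tested. In bulk tissue, fewer cells of a type and less RNA per cell cannot be told apart.

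Cell division and DNA replication was the list with the most genes called lower by DESeq2, and its sum was lower in all 3 older libraries. Of its 30 genes, 23 had all 3 VAF6 libraries below all 3 VAF1 libraries, against 9.33% of all genes, and 0 the reverse. DESeq2 called 21 lower and 0 higher without VAF6-3 and 10 lower and 0 higher with it, and edgeR called 0 in both, with a median log2 fold change of -1.47 without and -1.11 with VAF6-3. The summed level was 378, 352 and 519.7 CPM at 1 month and 159, 195 and 258 CPM at 6 months. With the library number as a block, edgeR called 9 lower.

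CDC20, the activator of the anaphase-promoting complex, had 13.5, 10.6 and 16.4 CPM at 1 month and 2.06, 2.93 and 4.53 CPM at 6 months (DESeq2 log2 fold change -2.43 without and -2.07 with VAF6-3, adjusted p = 5.37e-09 and 6.62e-05; edgeR adjusted p = 0.144). UBE2C, its ubiquitin-conjugating partner, had 10.3, 7.96 and 15.9 CPM against 2.12, 3.24 and 3.30 CPM (DESeq2 adjusted p = 1.15e-04 and 2.98e-04). TK1, the thymidine kinase of S phase, had 17.2, 10.5 and 17.005 CPM against 4.24, 2.75 and 3.41 CPM, with log2 fold changes of -2.08 and -2.09 by DESeq2 (adjusted p = 5.12e-06 and 4.00e-06). MCM3, a subunit of the replicative helicase, had 15.9, 13.7 and 19.8 CPM against 4.71, 4.89 and 6.94 CPM (DESeq2 adjusted p = 4.23e-07 and 3.00e-04). In all 4 the ages did not overlap.

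In mitotic genes VAF6-3 was often the highest of the older libraries. TOP2A, topoisomerase IIα, had 27.2, 24.6 and 40.6 CPM at 1 month and 4.53, 13.8 and 21.2 CPM at 6 months, and DESeq2 called it without VAF6-3 (adjusted p = 0.00774) and not with it (0.268). CDK1, the mitotic kinase, had 6.43, 5.97 and 11.5 CPM against 1.35, 2.44 and 3.91 CPM (DESeq2 adjusted p = 9.32e-04 and 0.0527). MKI67, the gene of the proliferation marker Ki-67, had 17.6, 15.5 and 25.9 CPM against 2.53, 10.1 and 11.5 CPM (adjusted p = 0.0442 and 0.251). The 2 members with the highest mean CPM were PCNA, with 33.8, 36.1 and 43.6 CPM against 26.4, 29.6 and 30.9 CPM, and MCM6, with 26.5, 18.8 and 36.6 CPM against 17.3, 18.4 and 23.8 CPM. Neither tool called them (DESeq2 adjusted p = 0.30 and 0.320, edgeR 0.410 and 0.487).

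Their promoters were read from the Sscrofa11.1 sequence of RefSeq, as the 300 bases from 250 before to 50 after the annotated gene start. Matches were counted on both strands for CCAAT, the letters of the CCAAT box that NF-Y binds, and for TTTGAA, the core letters of the cell cycle homology region (CHR). Of 29 promoters of the list, 24 held CCAAT (82.8%), against 35.4% of 19528 promoters of protein-coding genes, and 13 held TTTGAA (44.8%), against 14.01%. The CCAAT share is not particular to cell division. Of 17 cholesterol synthesis and uptake promoters, 15 held CCAAT (88.2%) and 2 held TTTGAA (11.8%). TTTGAA shares above that of all promoters occurred in other lists too. It was in 7 of 24 cytokine and acute phase promoters (29.2%) and 4 of 13 adrenal marker promoters (30.8%), and in 0 of 21 lipogenesis promoters. The 4 sequences show members with both kinds of match, 5′ to 3′ along the gene's strand, with CCAAT and TTTGAA matches (or their reverse complements) in capitals; none of the matches overlap.
CDC20 (chr6:167890538-167890837, minus strand): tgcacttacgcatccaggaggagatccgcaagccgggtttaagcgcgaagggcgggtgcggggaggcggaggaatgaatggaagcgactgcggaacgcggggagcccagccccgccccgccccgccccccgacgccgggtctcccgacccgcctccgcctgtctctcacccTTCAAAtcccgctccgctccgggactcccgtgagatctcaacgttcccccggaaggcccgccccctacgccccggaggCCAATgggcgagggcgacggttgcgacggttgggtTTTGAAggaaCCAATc
TOP2A (chr12:22001050-22001349, plus strand): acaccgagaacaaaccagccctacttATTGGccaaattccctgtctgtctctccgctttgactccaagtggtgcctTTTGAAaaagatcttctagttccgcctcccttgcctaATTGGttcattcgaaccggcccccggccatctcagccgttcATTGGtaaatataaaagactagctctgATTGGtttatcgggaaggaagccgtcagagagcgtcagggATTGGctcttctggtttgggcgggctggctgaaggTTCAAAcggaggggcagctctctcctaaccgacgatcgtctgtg
CDK1 (chr14:64233695-64233994, plus strand): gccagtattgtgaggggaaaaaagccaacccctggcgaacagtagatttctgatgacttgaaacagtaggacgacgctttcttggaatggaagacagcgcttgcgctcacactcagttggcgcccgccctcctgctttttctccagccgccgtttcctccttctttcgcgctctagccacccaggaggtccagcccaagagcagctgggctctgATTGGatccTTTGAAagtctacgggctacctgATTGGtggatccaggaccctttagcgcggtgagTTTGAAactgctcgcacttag
UBE2C (chr17:48018153-48018452, plus strand): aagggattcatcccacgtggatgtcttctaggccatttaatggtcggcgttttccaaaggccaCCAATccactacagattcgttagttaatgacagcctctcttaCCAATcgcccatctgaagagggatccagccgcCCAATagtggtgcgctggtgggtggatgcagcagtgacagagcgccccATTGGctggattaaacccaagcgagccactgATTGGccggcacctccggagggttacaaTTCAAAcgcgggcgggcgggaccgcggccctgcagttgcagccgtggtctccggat

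The same window was read for the lipogenesis list. The palindromic E-box CACGTG, to which several families of transcription factors bind, was in 5 of 21 promoters (23.8%), against 7.93% of all promoters. Other lists had shares of like size: 27.8% of 18 fasting-responsive, 6 of 24 immediate early and 20.7% of 29 cell division promoters held it, so it is not particular to lipogenesis. The sterol response element TCACNCCAC was in 1 (4.76% against 0.917%). ACLY is shown as the lipogenic member with the E-box near its start; capitals mark CACGTG and CCAAT.
ACLY (chr12:20796428-20796727, plus strand): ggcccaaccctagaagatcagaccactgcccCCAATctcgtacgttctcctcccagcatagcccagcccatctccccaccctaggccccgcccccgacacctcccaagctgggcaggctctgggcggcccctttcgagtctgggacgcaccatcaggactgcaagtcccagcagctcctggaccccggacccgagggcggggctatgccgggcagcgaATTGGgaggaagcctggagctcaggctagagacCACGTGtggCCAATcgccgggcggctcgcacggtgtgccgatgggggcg
A match in such a window is a description of letters, and no binding was measured here.

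The calls among genes of the fibrillar and network matrix were all lower. Of 29 tested, 7 had all older libraries below the young ones, against 9.33% of all genes, and 0 above; edgeR called 1 lower (POSTN) and DESeq2 called 5 lower, against 3.17% of all genes, and 0 higher without VAF6-3 and 2 lower with it. The median log2 fold change was -0.67 by edgeR, and with the library number as a block 7 were called lower. LOXL2, a lysyl oxidase that crosslinks collagen, had 362, 309 and 377 CPM at 1 month and 92.5, 121 and 68.5 CPM at 6 months (DESeq2 adjusted p = 1.36e-11 without and 3.05e-07 with VAF6-3; edgeR adjusted p = 0.113 and 0.0561). COL3A1, a fibrillar collagen chain, had 35191, 12459 and 16691 CPM against 10523, 8819.6 and 7894 CPM, and SPARC, a collagen-binding matricellular protein, 19522, 11566 and 12069 CPM against 9564, 8469.5 and 3272 CPM. In both, the ages did not overlap and neither tool called the gene (DESeq2 adjusted p = 0.0889 and 0.184). VAF1-1 stood out among the young libraries: the list summed to 124937, 49863 and 56569 CPM in VAF1-1, VAF1-2 and VAF1-3, and COL1A1 had 22795, 4253 and 4940.3 CPM against 5906, 2344 and 4118 CPM, an overlap of the ages. THBS2, thrombospondin 2, was lower in VAF6-1 and VAF6-2 and not in VAF6-3, with 221, 234 and 214 CPM at 1 month, 76.97 and 89.2 CPM there and 215 CPM in VAF6-3 (DESeq2 adjusted p = 9.00e-12 without and 0.421 with VAF6-3). LOX, the founding lysyl oxidase, had 2.83, 6.19 and 6.30 CPM against 2.18 and 8.19 CPM, and 76.4 CPM in VAF6-3.

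Imprinted and juvenile growth genes were lower at 6 months in 18 of the 21 tested by the sign of the edgeR estimate, with a median log2 fold change of -0.79. In 7 all 3 older libraries lay below the young ones and in 2 above, against 9.33% and 6.7% of all genes. edgeR called 0. DESeq2 without VAF6-3 called 8 lower and 0 higher, against 3.17% and 4.32% of all genes. With VAF6-3 it called 3 lower, against 1.14%. With the library number as a block edgeR called 8 lower. NNAT, the imprinted neuronatin gene, had 323, 1542 and 752 CPM at 1 month and 76.1, 114 and 190.4 CPM at 6 months (DESeq2 log2 fold change -3.19 without and -2.78 with VAF6-3, adjusted p = 1.05e-06 and 1.96e-04). DLK1, the preadipocyte factor, had 0.413, 17.5 and 5.02 CPM at 1 month, 0 in VAF6-1 and VAF6-2 and 0.0767 CPM in VAF6-3 (DESeq2 adjusted p = 0.00588 and 0.00661). IGF2BP3, a fetal RNA-binding protein, had 5.01, 6.97 and 14.6 CPM against 0.412, 1.89 and 3.53 CPM (DESeq2 adjusted p = 9.42e-04 and 0.0686), and EZH2, the Polycomb methyltransferase, 9.91, 10.1 and 10.4 CPM against 3.47, 4.52 and 5.79 CPM (adjusted p = 3.72e-04 and 0.0299). IGF2, the imprinted fetal growth factor, had 223, 276 and 191 CPM against 128, 140.4 and 191 CPM, and was called only without VAF6-3 (DESeq2 adjusted p = 0.0251 and 0.384). GRB10 and NDN were the 2 members with all older libraries above the young ones, at 47.4, 49.6 and 50.2 CPM against 59.1, 64.6 and 79.1 CPM and 20.4, 23.4 and 20.7 CPM against 28.2, 29.1 and 24.1 CPM, and neither was called.

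Beside NR1D1, NR1D2 and TEF, other clock genes were mostly not called. Of a list of 19 clock genes chosen after the values were seen, 7 had all older libraries above the young ones and 1, NPAS2, below. The shares of all genes were 6.7% and 9.33%. edgeR with the library number as a block called 4 higher. The period genes were among the 7: PER1 had 82.5, 79.8 and 56.6 CPM against 131, 112 and 185 CPM and PER3 35.1, 47.05 and 26.97 CPM against 64.2, 54.8 and 57.3 CPM, not called (DESeq2 adjusted p = 0.0553 and 0.152). DBP, the PAR bZIP relative of TEF, was called by DESeq2 without VAF6-3 (adjusted p = 0.00739) but had 27.8, 32.2 and 19.6 CPM, 52.4 and 57.3 CPM and, in VAF6-3, 7.02 CPM. ARNTL, the positive arm of the clock, had 13.2, 11.04 and 12.9 CPM against 6.30, 9.90 and 18.8 CPM (DESeq2 adjusted p = 0.286). The time of day of slaughter is not given in the sources used here, so its part in these values was not tested.

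The adipocyte identity list showed no common shift. Its 18 genes summed to 15464, 25839 and 23659 CPM at 1 month and 25768, 24657 and 18777 CPM at 6 months, edgeR called 0, and DESeq2 called 1, LEP, lower. LEP, the leptin gene, had 59.6, 86.4 and 111 CPM at 1 month and 31.4, 19.2 and 7.63 CPM at 6 months (DESeq2 log2 fold change -1.75 without and -2.13 with VAF6-3, adjusted p = 5.30e-05 and 0.00337; edgeR adjusted p = 0.342). CD36, the fatty acid translocase, had 1504, 2871 and 2761 CPM against 2308, 2567 and 3184 CPM. PLIN1, the main droplet coat protein of adipocytes, had 909.8, 1406 and 1218 CPM against 1794, 1979.8 and 1466 CPM, with the ages apart but no call (DESeq2 adjusted p = 0.0721).

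Triglyceride assembly and droplet genes split: DESeq2 without VAF6-3 called CIDEA and FITM2 higher and LPGAT1, PLIN3 and PLIN5 lower of 14 tested, and 0 with it. Over all genes it called 4.32% higher and 3.17% lower without VAF6-3. The 2 members with the highest mean CPM, DGAT2 with 1343, 1937 and 1516 CPM against 2135, 2361 and 162 CPM and ACSL1 with 876, 1574 and 1490.3 CPM against 1869.6, 3170.2 and 435 CPM, were not called, and VAF6-3 was the lowest of the 6 libraries in both. FITM2, which partitions triglyceride into droplets, had 6.25, 21.4 and 19.8 CPM against 36.7, 57.4 and 33.7 CPM (DESeq2 adjusted p = 0.0303). Of 17 lipolysis genes DESeq2 called 1 higher, MGLL, the monoglyceride lipase, with 487, 886 and 700.3 CPM against 1815 and 1559.7 CPM and 700.4 CPM in VAF6-3 (adjusted p = 6.40e-04 without and 0.271 with VAF6-3), and LIPE, hormone-sensitive lipase, had 931, 1452 and 994 CPM against 1737, 1348 and 1057 CPM.

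Fatty acid oxidation had 24 members tested, of which DESeq2 called 6 higher and 1 lower without VAF6-3 and 1 higher with it. Shares of all genes were 4.32% higher and 3.17% lower without VAF6-3, and 0.718% higher with it. PPARA, the nuclear receptor that turns oxidation genes on, was the one called both times, at 0.413, 1.60 and 2.26 CPM against 4.65, 10.2 and 7.63 CPM (adjusted p = 0.0131 and 0.00662). CPT1A, the gate to the mitochondrion, had 84.6, 101 and 101 CPM, 58.7 and 49.01 CPM in VAF6-1 and VAF6-2 and 197 CPM in VAF6-3, and was called lower only without VAF6-3 (adjusted p = 0.00303 and 0.972). ACAA1 and HADH, the members with the highest mean CPM, were not called, with 612, 1166 and 838 CPM against 1292, 845 and 719 CPM and 449, 562 and 489 CPM against 679, 805 and 237 CPM. Among the thermogenic genes P2RX5, a purinergic receptor used as a beige adipocyte marker, had 1.83, 2.64 and 3.71 CPM at 1 month, 51.9 and 71.1 CPM in VAF6-1 and VAF6-2 and 4.91 CPM in VAF6-3 (DESeq2 adjusted p = 1.08e-33 and 2.66e-05; edgeR adjusted p = 0.127). CIDEA and UCP3, the thermogenic members with the highest mean CPM, had 428, 499 and 413 CPM against 799.7, 1101 and 308 CPM and 167, 252 and 179 CPM against 184, 107 and 76.4 CPM, and 4 of 17 tested were called higher and 1 lower by DESeq2 without VAF6-3.

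In the list of adipokines and of the growth hormone and insulin pathway, DESeq2 called ADIPOR2 and NAMPT higher and LEP lower of 22 tested without VAF6-3, and LEPR and NAMPT higher and LEP lower with it. Among all genes the shares were 4.32% higher and 3.17% lower without VAF6-3, and 0.718% and 1.14% with it. ADIPOR2, an adiponectin receptor, had 853, 989.6 and 933 CPM, 1944 and 2360.1 CPM in VAF6-1 and VAF6-2 and 669.6 CPM in VAF6-3 (adjusted p = 6.74e-08 and 0.436). NAMPT, which makes NAD, had 30.9, 35.2 and 29.5 CPM against 57.8, 49.3 and 76.7 CPM (adjusted p = 0.0112 and 0.0377). Of 24 hormone receptor and steroid genes tested, DESeq2 without VAF6-3 called HSD11B1 and PRLR higher and VDR lower. HSD11B1, which regenerates active glucocorticoid, had 32.3, 37.7 and 27.7 CPM against 65.4, 54.7 and 86.5 CPM (adjusted p = 0.00716 without and 0.0171 with VAF6-3). Most reads fell on HSD17B12, with 493, 557 and 561 CPM against 597, 1058 and 127 CPM, and RXRA, with 112, 136 and 144 CPM against 190.1, 178 and 138 CPM.

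Of 25 macrophage genes DESeq2 called 1 higher and 3 lower without VAF6-3, against 4.32% and 3.17% of all genes. With VAF6-3 it called 1 higher and 2 lower, against 0.718% and 1.14%. The 25 genes summed to 2307, 1458 and 4369.8 CPM at 1 month and 1855, 1904 and 4612 CPM at 6 months, so the ages overlapped. CD163, a scavenger receptor of resident macrophages, had 102, 67.4 and 99.6 CPM at 1 month and 146, 155 and 826 CPM at 6 months (DESeq2 adjusted p = 0.0487 without and 0.0477 with VAF6-3). SPP1, the osteopontin gene, had 101, 51.6 and 1461 CPM in VAF1-1, VAF1-2 and VAF1-3, so that VAF1-3 was far above the other young libraries, and 5.48, 8.31 and 26.6 CPM at 6 months (adjusted p = 0.00321 and 0.0171). MARCO, another scavenger receptor, had 1.0025, 3.77 and 4.49 CPM against 0.353, 0.0611 and 0.537 CPM (adjusted p = 0.00177 and 0.00661). The complement genes C1QC and C1QB had 305, 193 and 272 CPM against 337, 374 and 574 CPM and 288, 208 and 288 CPM against 285, 295 and 569 CPM and were not called; edgeR called 0 of the list.

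Other immune lists held few calls. DESeq2 shares over all genes were 4.32% higher and 3.17% lower without VAF6-3, and 0.718% and 1.14% with it. Of 34 lymphocyte and antigen presentation genes DESeq2 called 2 higher without VAF6-3, CD247 and JCHAIN, and 0 with it; CD74 and SLA-DRA, of antigen presentation, had 1088, 1559.5 and 1413 CPM against 1081, 1084 and 539 CPM and 498, 801 and 782 CPM against 586, 644 and 272 CPM. Of 28 interferon response genes 1 was called lower in both DESeq2 fits, IFI6, with 555, 848 and 755 CPM against 281, 345 and 440.2 CPM (adjusted p = 2.62e-04 and 0.0425). Complement gave 2 called higher of 24 (CFI and C8G) and cytokines and acute phase 1 higher (S100A12) and 1 lower (CCL2) of 23, all without VAF6-3. CCL2, a monocyte chemokine, had 60.5, 49.3 and 51.3 CPM against 30.7, 37.03 and 27.5 CPM (DESeq2 adjusted p = 0.0498 and 0.109).

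Immediate early genes, which handling and stress of tissue can turn on, were lower at 6 months in 9 of 25 tested by the position of the libraries. The share of all genes was 9.33%. DESeq2 called 6 lower without VAF6-3, against 3.17% of all genes, and 3 lower with it, against 1.14%. By position and by DESeq2 without VAF6-3, 1 gene went the other way (HSPH1). edgeR called 0, and 10 lower and 1 higher with the library number as a block. ATF3, a stress-induced factor, had 36.3, 26.6 and 156 CPM at 1 month and 4.24, 6.84 and 12.4 CPM at 6 months (DESeq2 adjusted p = 0.00602 and 3.00e-04), and NR4A1 90.8, 125 and 80.3 CPM against 20.02, 24.5 and 51.5 CPM (adjusted p = 1.95e-11 and 0.0100). DUSP1, a MAP kinase phosphatase, had 326, 527 and 273 CPM, 108 and 178 CPM in VAF6-1 and VAF6-2 and 320.4 CPM in VAF6-3 (DESeq2 adjusted p = 0.00506 and 0.400), and JUND 255, 258 and 152 CPM against 146, 147 and 143 CPM. The part of these genes' differences in the other results was not tested.

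Markers of other cells and organs are given as sums over each list. Endothelial genes summed to 3089.5, 3796 and 3039 CPM and 3525, 3825 and 4011 CPM, with 0 of 24 called by either tool; PECAM1 had 568, 757 and 602 CPM against 769, 829 and 791 CPM and VWF 426, 386 and 260.3 CPM against 393, 516 and 624 CPM. Smooth muscle markers summed to 1092, 1491 and 753 CPM and 1161, 966 and 1309.8 CPM, with LMOD1 called higher (30.02, 39.6 and 20.1 CPM against 76.7, 90.2 and 53.7 CPM, DESeq2 adjusted p = 4.47e-04 without and 0.0245 with VAF6-3). Nerve and Schwann cell markers summed to 485, 486 and 441 CPM and 367, 332 and 353 CPM, lower in all 3 older libraries than in the young ones, and 2 of 12 were called lower in both DESeq2 fits: NGFR, the low-affinity neurotrophin receptor, with 55.8, 53.3 and 100.3 CPM against 3.77, 5.80 and 23.9 CPM (adjusted p = 3.17e-20 and 0.00358), and GFRA3, the artemin receptor, with 39.2, 52.02 and 50.8 CPM against 14.4, 12.3 and 5.41 CPM (adjusted p = 5.80e-11 and 5.75e-05). Lymph node stroma markers summed to 101, 129.8 and 92.9 CPM and 82.9, 76.9 and 37.9 CPM, with CCL21 called lower (64.3, 84.2 and 66.7 CPM against 8.30, 30.5 and 20.2 CPM, DESeq2 adjusted p = 0.00400 without and 0.00569 with VAF6-3).

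Blood cell markers summed to 525, 519 and 532 CPM and 392, 519 and 151 CPM, nearly all of it HBB, the β-globin gene, at 498, 482 and 499.6 CPM and 373, 493 and 139 CPM. Skeletal muscle markers summed to 7.84, 10.6 and 67.5 CPM and 6.6, 8.74 and 21.1 CPM, kidney markers to 119, 185 and 185 CPM and 139.7, 191 and 336 CPM, most of it PODXL and AQP3, which other cells also express, adrenal markers to 32.1, 49.1 and 28.9 CPM and 52.7, 31.5 and 24.7 CPM, and mesothelial markers to 14.1, 28.6 and 25.7 CPM and 65.7, 16.7 and 32.6 CPM. VAF6-1 had the highest urothelial and mesothelial sums of the 6, with KRT8 at 4.48, 11.5 and 6.09 CPM at 1 month and 26.6, 4.34 and 2.03 CPM at 6 months. Neither tool called any member of these 5 lists or of the urothelial list. In the lists whose block result is not given above, edgeR with the library number as a block called 4 fatty acid oxidation genes higher, 3 thermogenic genes higher and 1 lower, 2 genes each higher of triglyceride assembly, lipolysis and lymphocytes, 1 each higher of cytokines and smooth muscle, 4 interferon response genes lower, 2 each lower of macrophages and nerve and 1 lower of the progenitors. These counts stand beside 451 higher and 314 lower of all 15175 genes tested in that fit.

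Whether the age change differed between depots was tested as the difference of both changes in the same fit. Of 16664 genes, edgeR called 0 (0%), with 309 at an unadjusted p below 0.05, and 0 under each of 16 fits and without a limit on the fold change, with between 186 and 648 genes at an unadjusted p below 0.05. A count of 0 does not show that the depots changed alike with age. The fit has no term for the pig, since the labels do not tie libraries to pigs, and it leaves out VAF6-3 while SAF6-3 stays in; the count was also 0 with VAF6-3, without SAF6-3 and with libraries of equal age and number as a block. In SAF the same fit called 36 genes higher (0.216%) and 98 lower (0.588%) at 6 months. Of the 15 genes called in VAF, 11 were also called in SAF in the same direction. The depots shared pigs and the estimate of the spread, so these are not independent counts. The log2 fold change of NR1D1 was 2.51 in VAF and 2.03 in SAF, that of ITIH3 2.73 and 3.22, that of PCK1 -4.87 and -3.86 and that of HILPDA -1.86 and -2.12.

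POSTN and LOC102163816 were the called genes with the widest gap between depots. The log2 fold change of POSTN was -4.29 (SE 0.61) in VAF and -0.40 (SE 0.45) in SAF, where it had 1270.1, 2039 and 1459 CPM at 1 month and 993, 1439 and 1211 CPM at 6 months. The test of the difference gave -3.89 (SE 0.72, edgeR adjusted p = 0.955), which was not called. LOC102163816 gave -3.37 and -0.15, a difference of -3.22 (SE 0.62, adjusted p = 0.955). SLC16A13 (2.26 and 1.07) and LOC102162791 (2.18 and 0.81) were not called in SAF, and their differences were not called either (adjusted p = 0.99994 and 0.99994).

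**Figure D5:**
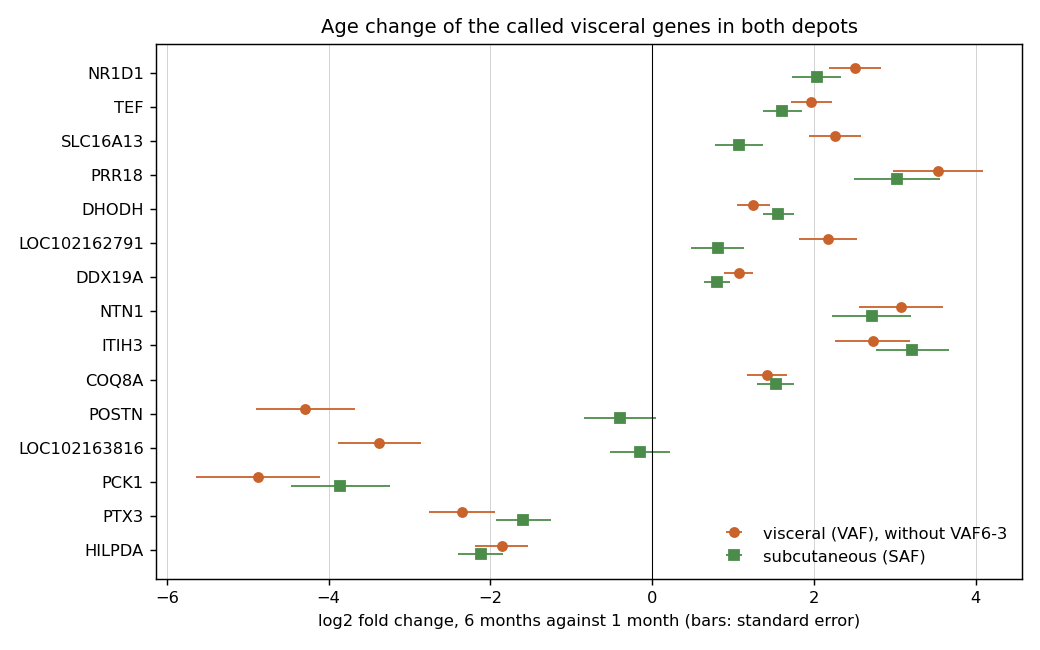
log2 fold change of 6 months against 1 month, with its standard error, for the 15 genes called in visceral fat: circles are VAF without VAF6-3, squares are SAF with all 3 libraries. Each gene has the same sign in both depots, and POSTN and LOC102163816 lie near 0 in SAF.

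SAF6-3, the subcutaneous library with the number of VAF6-3, was also apart from its group in some of the lists that set VAF6-3 apart. The lipogenesis list summed to 98799, 93410.3 and 2005 CPM in SAF6-1, SAF6-2 and SAF6-3, and FASN had 27261, 26674 and 139 CPM. The fasting-responsive list summed to 3856, 3544 and 8196 CPM, with PDK4 at 82.1, 143 and 1418 CPM. Cholesterol synthesis and uptake summed to 1780, 1905 and 517 CPM. The progenitor and mesenchyme list, higher in VAF6-3, was not higher in SAF6-3, with 1898, 2089 and 1545 CPM in the same order. The cell division list summed to 123, 185 and 115 CPM, where SAF6-3 did not stand apart. The labels do not say that equal numbers mark the same pig.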

How the data were processed

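RNA-seq was made from both fat depots of 9 male Bama pigs, 3 per age. Per the study's methods, the authors filtered the reads (fastp), mapped them to the Sscrofa11.1 build (HISAT2 2.0.4) and took counts per gene (HTSeq-count); the annotation release and the strand setting are not given in the sources used here. The deposited values are raw counts for 29884 genes in 18 libraries, none of them a blank or total row. Libraries were grouped by the names in the table header. The titles of 4 samples give another age or number than those names, and this second reading was run as an alternative.

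edgeR 4.0.16 (R 4.3.3) was fitted to all groups without VAF6-3 (17 libraries), with TMM scaling, filterByExpr, robust quasi-likelihood tests and Benjamini-Hochberg adjustment. Limits were an adjusted p of 0.05 and a 1.5-fold difference. DESeq2 1.42.0 was run on VAF1 and VAF6 alone. Other fits changed the libraries, the groups, the filter, the scaling or the blocking. VAF1-1, VAF1-2, VAF1-3, VAF6-1 and VAF6-2 were each left out in turn. SAF6-3 was left out in a fit chosen after seeing the data, and no other library of the main fit was left out alone. The fits were tested on simulated counts. Same-numbered VAF1 and VAF6 libraries, VAF6-3 included, deviated together weakly from their group means (r = 0.258, 0.143 and 0.128 over 13962 genes). The labels do not say what the numbers share, and the pigs of the ages differ. With 3 pigs against 2 or 3, the p-values measure only the spread between libraries of this series. In the fit of all groups that spread was estimated over both depots and all ages. Both depots were sampled from the same pigs, and that fit had no term for the pig.

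Members, lists and tests were chosen with earlier results of these data known. Named by rule were, in each direction, up to 12 called genes with separated groups, and of each of 30 lists up to 3 called members per direction and the 2 with the highest mean CPM; identifiers without a symbol were left out of the rule, and LOC102162791 and LOC102163816 were named after their values were seen. Read depth was 17035783 to 22857354 counts in the 6 libraries. Values of some single list members are not reported here.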

Additional observations from a re-analysis of the deposited data

How the results depend on the processing

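The count of 15 called genes (10 higher, 5 lower) was 15 (10 and 5) without robust estimation, with DESeq2 size factors in edgeR and without a limit on the fold change, 11 (6 and 5) without the filter on low counts and 17 (7 and 10) with VAF6-3. With VAF1 and VAF6 alone it was 164 (130 and 34), and 0 with VAF6-3 added. With the 4 groups of 1 and 6 months it was 24 (15 and 9), and 666 (453 and 213) with SAF6-3 also left out; leaving out SAF6-3 from the fit of all groups gave 289 (205 and 84). The replicate block gave 765 (451 and 314), and 0 with VAF6-3 in the blocked fit. The other reading of the labels, with VAF6-3 in the fit, gave 9 (2 and 7), and 0 without VAF3-3. DESeq2 gave 1207 (696 and 511) on the 5 visceral libraries, 302 (117 and 185) with VAF6-3 and 435 (178 and 257) on all groups. Leaving out 1 VAF1 library at a time gave between 0 and 10 calls, between 0 and 4 higher and between 0 and 6 lower. The fits without SAF6-3, with DESeq2 on all groups and with the block and VAF6-3 together were chosen after seeing the data. The cause of these differences was not tested. The depot difference had 0 calls by edgeR in each of 16 fits, among them fits added after seeing the data with libraries of equal age and number from both depots as a replicate block (0 without and 0 with VAF6-3); these libraries deviated together at 6 months (r between 0.538 and 0.717) but not in every pair at 1 month (r between -0.225 and 0.351). Counted as pairs of a gene and an alternative fit, the 11 called genes named by the rule kept their call in 93 pairs and lost it in 94. None had its sign turned. Counted as pairs of a list and an alternative fit, the medians of the 30 lists changed sign in 77 pairs. Of the 16 kidney markers in the table, 11 had too few counts to be tested, so a difference in them was not detectable at this depth.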
